A study of Mus musculus with 15 samples.

Results

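The conjugating enzymes described here are the UDP-glucuronosyltransferases (UGT), the cytosolic and mitochondrial glutathione S-transferases (GST), the microsomal glutathione S-transferases (MGST) and the sulfotransferases (SULT). They were chosen by name: every row of the deposited count table whose symbol begins with Ugt1 to Ugt3, one of the Gst class letters a, k, t, m, p, o and z, Mgst or Sult and a number, leaving out pseudogene symbols that end in -ps. The rule uses no measured value and found 68 of the 56859 genes in the table. These were 21 UGT, 23 GST, 3 MGST and 21 SULT genes. Of the 68, 36 had enough counts to be tested (4 UGT, 20 GST, 3 MGST and 9 SULT genes), and 15 had no count in any library.

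The tissue was colon of male C57BL/6J mice aged 6 to 10 weeks, in a model in which the carcinogen azoxymethane (AOM) is combined with dextran sulfate sodium (DSS), an agent in the drinking water that injures the colonic lining. The labels give AOM at 10 mg/kg on day 0, and DSS at 2.5% on days 7 to 11, 28 to 32 and 49 to 53. APX3330 (E3330), which blocks the redox activity but not the DNA repair activity of APE1/Ref-1, was injected at 25 mg/kg on those DSS days, and the placebo animals received saline. There are 5 groups of 3 libraries: Control, 3 saline groups named for days 27, 48 and 100 (saline D27, D48 and D100), and APX3330. Control is labelled only as wild type, although the shared protocol gives AOM to every mouse, so whether the Control animals received it is not known here. The D48 libraries are titled cycle 1 and the D100 libraries cycle 2, which does not follow the DSS periods above. The titles name APX3330 and saline D27 alike, without a cycle, but no day is given for APX3330, so it may differ from each saline group in day as well as in treatment. Whether the 3 libraries of a group are separate animals is not stated, and the p-values below measure the spread between libraries.

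Conjugation is the second phase of the handling of drugs, dietary compounds, bile pigments and hormones. UGTs in the endoplasmic reticulum attach glucuronic acid taken from UDP-glucuronate, SULTs in the cytosol attach sulfate taken from the donor PAPS, and GSTs attach glutathione to electrophiles such as lipid peroxidation products and carcinogen metabolites. Transporters then carry the conjugates out of the cell, and enzymes such as beta-glucuronidase can take them apart again. In the colon these enzymes sit mainly in the surface epithelium, where they meet compounds made by gut bacteria, and their genes are known targets of the AHR, NRF2, HNF1, HNF4 and PXR transcription factors.

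The promoter stretches of 5 members are shown because these genes, from 3 families, fell together in saline D48 (below) and their windows show which motif letters each holds. Each is the RefSeq window on GRCm38.p6 of 250 bases before and 50 after a transcription start, written 5′ to 3′ on the gene's strand. Capitals mark matches on either strand to one of these motifs: the AHR core GCGTG, the antioxidant response element TGACNNNGC bound by NRF2, the HNF1 half-site GTTAAT, the HNF4 site CAAAGTCCA and the AP-1 site TGANTCA. The windows lie at chr5:86906888-86907187, minus strand (Ugt2b34), chr5:87000610-87000909, plus strand (Ugt2b35), chr1:88094751-88095050, plus strand (Ugt1a7c), chr3:108017769-108018068, minus strand (Gstm1), and chr5:87536173-87536472, minus strand (Sult1b1).
Ugt2b34: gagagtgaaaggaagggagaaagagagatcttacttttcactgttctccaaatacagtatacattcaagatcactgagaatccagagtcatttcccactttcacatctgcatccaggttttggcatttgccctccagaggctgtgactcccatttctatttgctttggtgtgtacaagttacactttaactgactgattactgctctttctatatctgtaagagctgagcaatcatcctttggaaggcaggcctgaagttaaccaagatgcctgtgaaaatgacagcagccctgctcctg
Ugt2b35: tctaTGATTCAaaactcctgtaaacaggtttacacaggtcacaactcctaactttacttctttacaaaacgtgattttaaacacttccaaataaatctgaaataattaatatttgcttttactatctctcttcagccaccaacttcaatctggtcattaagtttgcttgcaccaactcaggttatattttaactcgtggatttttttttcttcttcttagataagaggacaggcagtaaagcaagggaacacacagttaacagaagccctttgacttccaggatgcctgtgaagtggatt
Ugt1a7c: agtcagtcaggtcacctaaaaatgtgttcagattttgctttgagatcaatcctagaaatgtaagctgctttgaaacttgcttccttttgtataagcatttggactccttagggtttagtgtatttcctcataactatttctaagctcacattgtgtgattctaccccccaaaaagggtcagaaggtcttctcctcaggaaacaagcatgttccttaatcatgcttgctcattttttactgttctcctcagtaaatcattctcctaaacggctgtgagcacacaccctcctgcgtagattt
Gstm1: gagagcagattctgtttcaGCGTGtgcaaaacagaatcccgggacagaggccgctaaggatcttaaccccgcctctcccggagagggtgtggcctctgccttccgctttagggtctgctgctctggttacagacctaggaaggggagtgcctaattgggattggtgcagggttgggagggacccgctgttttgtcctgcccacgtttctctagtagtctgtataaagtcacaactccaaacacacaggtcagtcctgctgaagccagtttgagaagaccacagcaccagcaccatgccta
Sult1b1: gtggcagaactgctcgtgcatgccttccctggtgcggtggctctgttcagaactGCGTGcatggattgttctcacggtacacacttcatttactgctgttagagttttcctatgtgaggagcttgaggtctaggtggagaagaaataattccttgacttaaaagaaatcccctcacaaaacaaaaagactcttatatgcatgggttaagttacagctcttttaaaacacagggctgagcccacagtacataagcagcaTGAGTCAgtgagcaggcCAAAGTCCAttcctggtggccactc
The windows of Ugt2b34 and Ugt1a7c held none of the 5 motifs. That of Ugt2b35 held an AP-1 match, that of Gstm1 an AHR core, and that of Sult1b1 an AHR core, an AP-1 match and an HNF4 match. No motif was in all 5 windows. Gstm1 and Sult1b1 each have another RefSeq window, around the start of the GENCODE locus. That of Gstm1, at chr3:108017924-108018223, overlaps the window shown and held the same AHR core. That of Sult1b1, at chr5:87538146-87538445, held none of the 5 motifs. Windows were available for 59 of the 68 members, and for 33 of the 36 tested ones. Among the 44 windows of tested members, the AHR core was found in 25.0%, against 32.4% of all 32851 windows in the RefSeq table. The antioxidant response element was in 9.09% against 12.4%, the HNF1 half-site in 9.09% against 7.10%, the HNF4 site in 2.27% against 0.475%, and the AP-1 site in 18.2% against 7.81%. In that order, these were 4, 4, 1 and 8 of the 44 windows, and the differences from all windows were not tested. A match is a run of letters and not evidence of binding.

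Library totals ranged from 13548661 to 17919613 counts, and the 68 members together took between 0.158% and 0.288% of them. That share was 0.267% to 0.288% in Control, 0.205% to 0.214% at D27, 0.158% to 0.188% at D48, 0.213% to 0.252% at D100 and 0.243% to 0.252% in APX3330. Some libraries held transcripts of other tissues. A list of 10 squamous epithelium genes took 0.131% and 0.0614% of the counts in replicates 1 and 3 of Control, 0.0859% in replicate 1 of saline D100, and no more than 0.00948% elsewhere. A list of 10 exocrine pancreas genes took 3.73% and 0.994% in replicates 2 and 3 of saline D48, and no more than 0.00726% elsewhere. Results that touch these libraries are also given without them. The 10 epithelial markers (Epcam, Krt8, Vil1 and others) were all tested. Their summed CPM (counts scaled to library size) were 14700 to 15743 in Control, 13378 to 15025 at D27 and 12611 to 15176 at D48. At D100 they were 12752 to 13907, and in APX3330 11541 to 14662.

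Saline D48 was the group in which conjugating enzyme transcripts were lowest. Against Control, 19 of the 36 tested members fell and none rose: all 4 UGTs, 8 of 20 GSTs, 2 of 3 MGSTs and 5 of 9 SULTs. The median log2 fold change of the 36 was -0.55, beside 0 for all 18038 genes tested. Gstm1, a mu-class GST, fell by 54.8%, Ugt2b35 by 53.3% and Sult1d1, a sulfotransferase of catecholamines and phenols, by 50.2%. A fall or rise here is a call by edgeR's quasi-likelihood test with a Benjamini-Hochberg adjusted p below 0.05 over all 18038 genes. By the same rule 13.0% of all genes fell and 14.3% rose. In bulk tissue, fewer cells of a type and less RNA per cell cannot be told apart. Without the 3 libraries with squamous transcripts, which leaves 1 Control library, assumed to vary like the other groups, 9 of these members fell and none rose. Leaving out both saline D48 libraries with pancreatic transcripts left 7 called lower and none higher.

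The fall was smaller in the other saline groups. In saline D27 against Control, 10 members fell and 1, the pi-class Gstp2, rose, beside 9.36% of all genes lower and 10.2% higher, and the members' median log2 fold change was -0.17. In saline D100 against Control, 8 fell and 1, again Gstp2, rose, beside 10.5% lower and 11.4% higher, with a median of -0.23. edgeR called none of the 4 tested UGTs in saline D100, where 3 had fold changes above 0. These 2 counts depended on single libraries. For saline D27 the calls were 6, 7 and 4 without Control replicate 1, 2 or 3, and 5, 3 and 7 without saline D27 replicate 1, 2 or 3, and for saline D100 they were 5 without Control replicate 1. Without the libraries with squamous transcripts they were 0 for saline D27 and 2 for saline D100.

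In APX3330 against Control, the median log2 fold change was 0.41 for the 4 UGTs, -0.04 for the 20 GSTs, -0.26 for the 3 MGSTs and -0.55 for the 9 SULTs. Differences between these medians were not tested. The SULT median counts scarce genes equally, such as Sult1e1 (-2.59, SE 0.93), while the most abundant, Sult1a1, was at 0.25. With counts summed by subfamily, edgeR called Mgst lower (-0.37, adjusted p = 0.012). It did not call Ugt1a (0.39), Ugt2b (0.24), Gstm (0.03) or Sult1 (-0.23). Against Control, 5 members fell (Gsta4, Gsta1, Sult1c2, Sult1b1 and Mgst3) and Gstp2 rose, beside 8.18% of all genes lower and 7.16% higher, and the median over all 36 was -0.05. edgeR called no UGT and no mu-class GST here. DESeq2 called Ugt1a7c (0.38, adjusted p = 0.0449) and Ugt2b35 (0.43, adjusted p = 0.0347) higher, and edgeR without the filter on low counts called these and Gstm3 (0.46, adjusted p = 0.026) higher. The calls were 3 without Control replicate 1 or 3 or without APX3330 replicate 1 or 3, 1 without the libraries with squamous transcripts, and 11 when genes with low counts were not removed. Over the 5 groups, an F test called 23 of the 36 members (4 UGTs, 10 GSTs, 2 MGSTs and 7 SULTs), beside 37.3% of all genes tested.

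**Figure D1:**
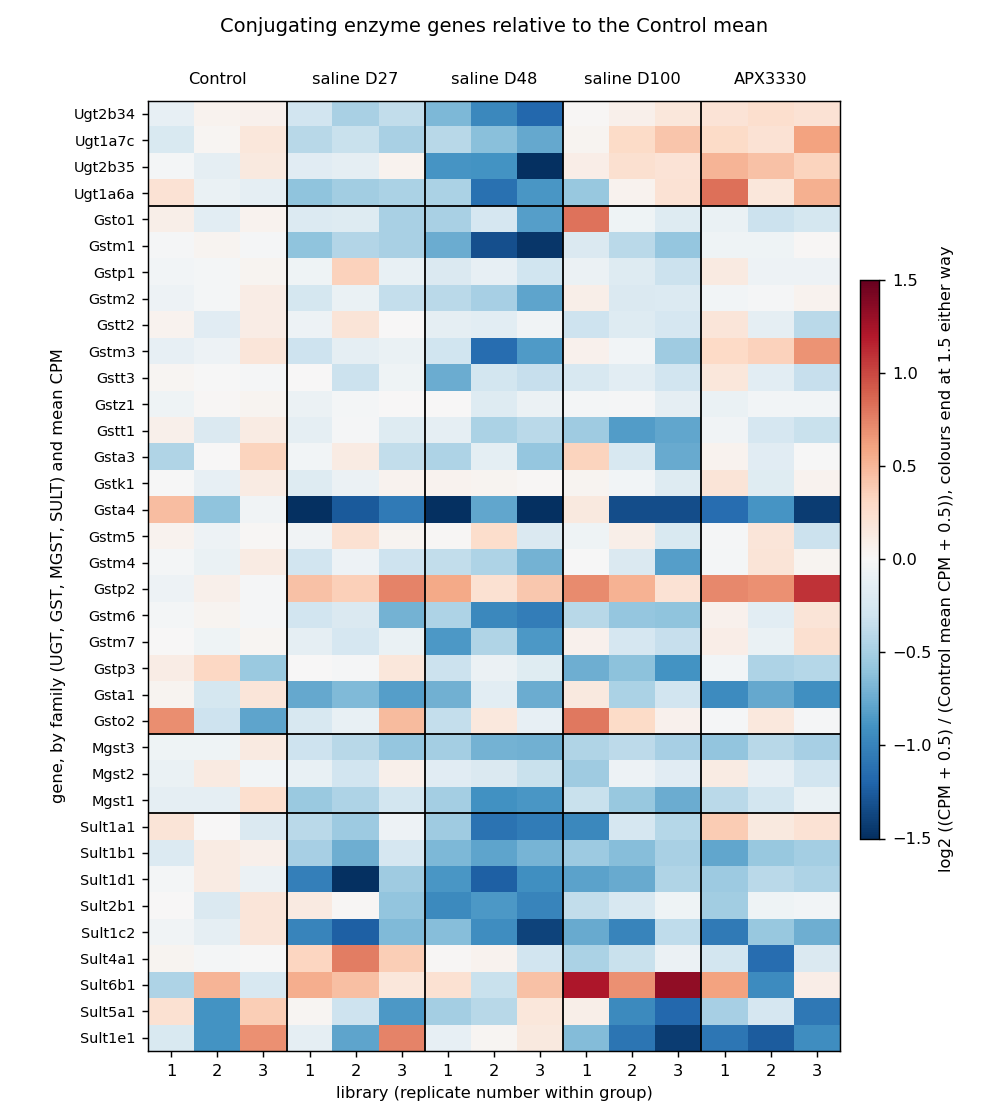
Level of each of the 36 tested conjugating enzyme genes (rows, by family and mean CPM) in each of the 15 libraries (columns), as the log2 ratio of CPM + 0.5 to the Control mean + 0.5; blue is lower and red is higher than the Control mean. The saline D48 columns are blue for all 4 UGT genes and most GST and SULT genes, and the saline D100 and APX3330 columns are pale or red for most UGT genes.

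APX3330 was compared with each saline group. Against saline D48, 13 members were higher and none lower: all 4 UGTs, 6 GSTs (all of the mu class), Mgst1, Sult1a1 and Sult2b1. The median log2 fold change was 0.28, and 9.41% of all genes were higher and 10.3% lower. Against saline D27, the 4 UGTs were higher and Sult4a1 was lower, with a median of 0.05 and with 4.71% of all genes higher and 4.37% lower. Leaving out saline D27 replicate 1 or 2 left 2 calls, and leaving out APX3330 replicate 1, 2 or 3 left 3. With both pancreas-bearing saline D48 libraries left out, 5 of the 13 were called higher (Ugt2b34, Ugt2b35, Ugt1a7c, Gstm1 and Gstm7).

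Against saline D100, edgeR called no member in APX3330, with 0.305% of all genes higher and 0.200% lower. Of the 36, 9 had an unadjusted p below 0.05, and the median log2 fold change was 0.13. DESeq2 called 2, the theta-class Gstt1 (log2 fold change 0.51, SE 0.15, adjusted p = 0.032) and Sult1a1 (0.77, SE 0.19, adjusted p = 0.0049). Without the filter on low counts edgeR called 4, with Sult1a1, Gstm3 and Gstt1 higher and Gsto1 lower. A p above the threshold does not show that the groups are alike. The 3 comparisons of APX3330 share its libraries, so they are not independent of one another.

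Between saline days, 4 members fell from D27 to D48 and 8 rose from D48 to D100. From D27 to D48, Ugt2b34, Ugt2b35, Gstm1 and Sult2b1 fell and none rose, where 0.499% of all genes were lower and 0.854% higher. From D48 to D100, 8 rose and none fell (Ugt2b34, Ugt2b35, Ugt1a7c, Gstm1, Gstm2, Gstm7, Gsto1 and Sult2b1), where 7.20% of all genes were higher and 6.40% lower. From D27 to D100, Ugt2b34 and Ugt1a7c rose and Gstt1 fell, where 1.63% were higher and 1.45% lower. The first of these counts was 0 in a fit of the 2 groups alone or without both pancreas-bearing libraries. It was 1 without saline D27 replicate 1 or 2 or saline D48 replicate 2 or 3, and 2 without saline D27 replicate 3. The second was 5 without saline D48 replicate 3 and 2 without both pancreas-bearing libraries. The third was 0 without saline D27 replicate 1 or 2 or saline D100 replicate 2 or 3.

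All 4 UGT genes fell in saline D48 against Control and were higher in APX3330 than in saline D48, and 3 of them (not Ugt1a6a) rose from saline D48 to D100. Ugt2b34, at chr5:86889767-86906937 on the minus strand, belongs to the subfamily whose enzymes glucuronidate steroids, bile acids and drugs, and was the most abundant UGT at 81.2 CPM per kb of exon. Its level was 354, 402 and 405 CPM in Control, 316, 277 and 300 at D27, 243, 198 and 171 at D48, 391, 409 and 437 at D100 and 445, 462 and 449 in APX3330. All 3 saline D48 libraries lay below every other library, and all 3 APX3330 libraries lay above all Control libraries. Its log2 fold change was -0.92 in saline D48 against Control (SE 0.11, adjusted p = 7.1e-05), 1.02 from saline D48 to D100 (SE 0.11, adjusted p = 1.7e-04) and 1.15 in APX3330 against saline D48 (SE 0.11, adjusted p = 3.7e-05). APX3330 against Control gave 0.22 (SE 0.11, adjusted p = 0.20), which did not pass. With saline D48 replicate 1 as the only library of its group, assumed to vary like the others, Ugt2b34 was still called, at -0.67 against Control and 0.90 for APX3330 against saline D48.

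Ugt2b35, of the same subfamily at chr5:87000860-87013275 on the plus strand had 8.40 CPM per kb of exon. Its level was 28.3, 26.1 and 31.9 CPM in Control, 25.5, 26.2 and 29.9 at D27, 15.4, 15.3 and 9.7 at D48, 30.9, 34.2 and 33.2 at D100 and 41.1, 39.3 and 36.4 in APX3330. The saline D48 libraries were again the lowest 3, the APX3330 libraries the highest 3, and Control and saline D27 overlapped. The log2 fold change was -1.10 in saline D48 against Control (SE 0.15, adjusted p = 1.7e-04) and 1.54 in APX3330 against saline D48 (SE 0.15, adjusted p = 3.7e-05), a rise of 190%. APX3330 also exceeded saline D27, by 0.52 (SE 0.15, adjusted p = 0.040), a call lost in a fit with the replicate number as a block and when saline D27 replicate 1 or 2 or any APX3330 library was left out.

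The Ugt1a genes on chromosome 1 share their last exons and differ in the first, so reads from the shared exons belong to any of them. In GENCODE M21, 54.6% of the exon bases of Ugt1a7c and 50.3% of those of Ugt1a6a are shared with other members, and how the authors assigned such reads is not given in the sources used here. The values of single Ugt1a genes are therefore uncertain. Ugt1a7c (chr1:88095062-88220002, plus strand) stood at 73.3, 87.7 and 96.7 CPM in Control, 64.1, 67.8 and 61.3 at D27, 64.4, 55.4 and 50.1 at D48, 88.6, 105 and 115 at D100 and 105, 100 and 131 in APX3330. Its saline D27 and D48 libraries were all below the Control libraries, its saline D100 libraries overlapped Control, and its APX3330 libraries were above all Control libraries. It fell by 0.60 on the log2 scale in saline D48 against Control (SE 0.13, adjusted p = 0.0037) and was higher in APX3330 by 0.99 against saline D48 (SE 0.13, adjusted p = 3.2e-04) and 0.80 against saline D27 (SE 0.13, adjusted p = 0.0058).

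Ugt1a6a, whose enzyme glucuronidates small planar phenols, was scarce. It was measured at 4.12, 3.21 and 3.13 CPM in Control, 2.12, 2.27 and 2.36 at D27, 2.38, 1.33 and 1.68 at D48, 2.19, 3.65 and 4.14 at D100 and 6.55, 4.0 and 5.29 in APX3330. Control and APX3330 overlapped, and all saline D27 and D48 libraries were below both. It was higher in APX3330 by 1.55 against saline D48 (SE 0.30, adjusted p = 0.0029) and by 1.23 against saline D27 (SE 0.30, adjusted p = 0.022). The second call was lost without saline D27 replicate 1 or 2 or APX3330 replicate 1 or 3.

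The 9 Ugt1a genes were also summed, which sets aside how shared reads were split between them, though not whether such reads were dropped or counted more than once. The sum was 90.1 ± 11.6 CPM (SD, n = 3) in Control, 67.3 ± 2.85 at D27, 59.0 ± 8.04 at D48, 106 ± 14.3 at D100 and 118 ± 16.9 in APX3330. It was higher in APX3330 against saline D48 by 1.00 on the log2 scale (SE 0.13, adjusted p = 2.9e-04). The 7 Ugt2b genes summed to 416 ± 29.2, 325 ± 19.2, 217 ± 38.9, 446 ± 24.7 and 492 ± 8.62 CPM in the same order of groups, and the log2 difference between APX3330 and saline D48 was 1.18 (SE 0.11, adjusted p = 3.1e-05). Both sums passed in APX3330 against saline D27 too, at 0.81 (SE 0.13, adjusted p = 0.0053) and 0.60 (SE 0.11, adjusted p = 0.0087), and neither passed against Control, at adjusted p = 0.059 and 0.16.

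**Figure D2:**
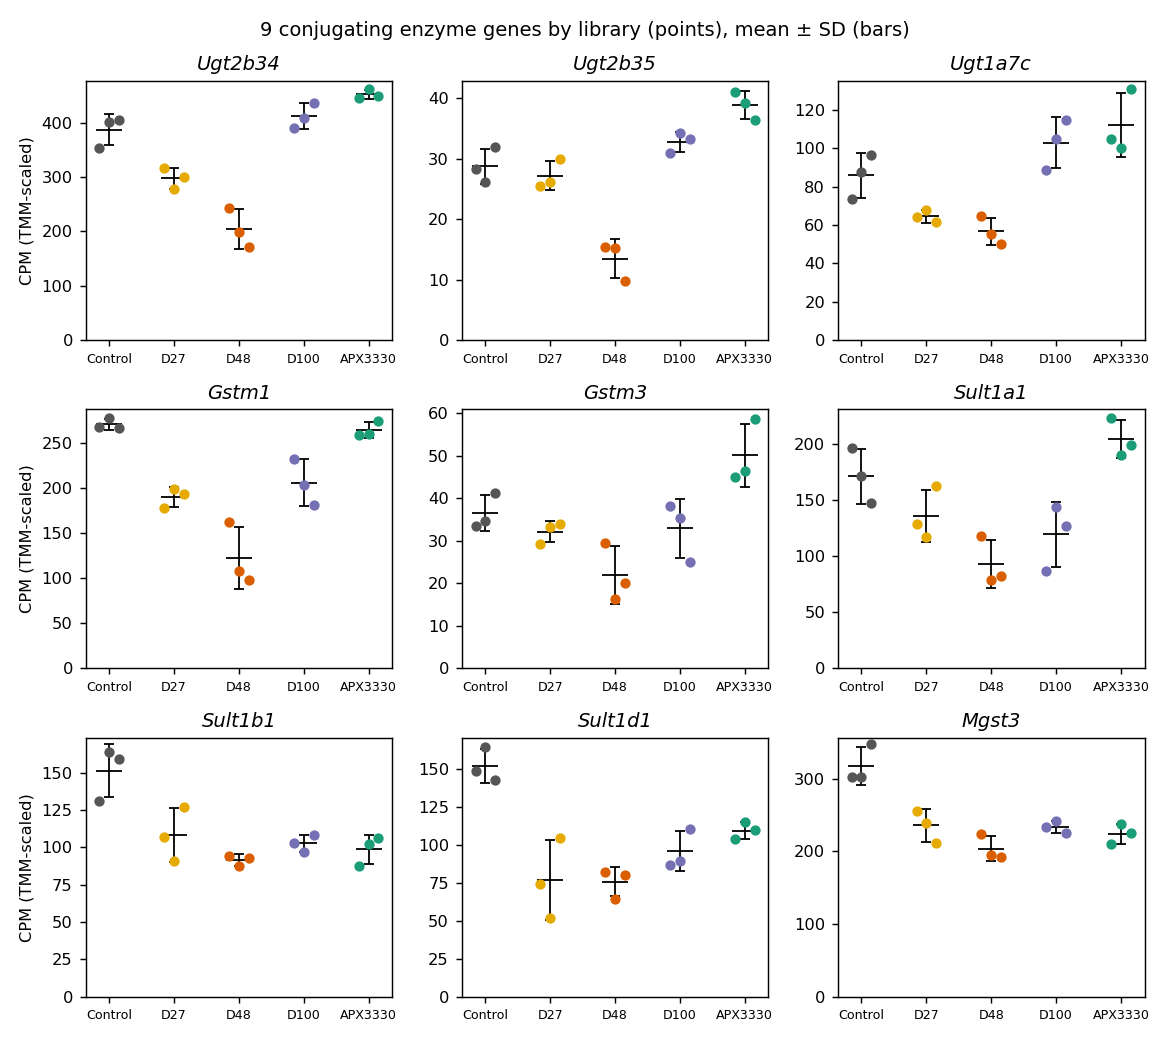
CPM of 9 conjugating enzyme genes in each library (points, 3 per group), with the group mean and SD as bars; the y axes are linear and start at 0. All 9 genes have their lowest group mean in saline D48. In Sult1b1, Sult1d1 and Mgst3 every Control library is above all libraries of the 4 other groups.

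Among the cytosolic GSTs, the mu class on chromosome 3 held most of the calls in saline D48. Of its 7 genes, 6 fell in saline D48 against Control, and the same 6 were higher in APX3330 against saline D48. Gstm5 passed neither test. Gstm1 (chr3:108012255-108017973, minus strand), which conjugates epoxides and other electrophiles, was the most abundant of the class at 143 CPM per kb. Its level was 268, 278 and 267 CPM in Control, 178, 199 and 194 at D27, 162, 108 and 98.1 at D48, 233, 204 and 181 at D100 and 259, 260 and 275 in APX3330. The Control and APX3330 libraries covered the same range, above all saline libraries, and the saline D48 libraries were the lowest. The log2 fold change was -1.14 in saline D48 against Control (SE 0.15, adjusted p = 9.8e-05) and 1.11 in APX3330 against saline D48 (SE 0.15, adjusted p = 2.8e-04). It was 0.48 in APX3330 against saline D27 (SE 0.15, adjusted p = 0.053), which did not pass with edgeR and did with DESeq2 (adjusted p = 0.014). The pancreas-bearing saline D48 libraries had the lowest 2 values, and without both the change against Control was -0.74 and still called.

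Gstm2 stood at 77.8, 80.3 and 88.6 CPM in Control, 68.4, 76.8 and 64.3 at D27, 61.9, 58.2 and 47.3 at D48, 87.3, 70.7 and 71 at D100 and 80, 81 and 85 in APX3330. All saline D48 libraries were below all others, and Control and APX3330 overlapped. Gstm3 was measured at 33.4, 34.7 and 41.3 CPM in Control, 29.3, 33.3 and 33.9 at D27, 29.5, 16.2 and 20 at D48, 38.2, 35.4 and 25.1 at D100 and 45, 46.5 and 58.7 in APX3330. Its APX3330 libraries were the highest 3, and saline D48 replicates 2 and 3 were the lowest 2. APX3330 exceeded saline D48 by 0.56 in Gstm2 (SE 0.11, adjusted p = 0.0033) and 1.19 in Gstm3 (SE 0.20, adjusted p = 0.0011). The fall of Gstm3 in saline D48 against Control, -0.74 (SE 0.20, adjusted p = 0.012), was lost without Control replicate 3 or saline D48 replicate 2 or 3.

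Gstm6 and Gstm7 were scarcer, with their lowest group mean also in saline D48. Gstm6 levels were 14.1, 14.8 and 14.2 CPM in Control, 11.7, 12.3 and 8.62 at D27, 10.3, 7.13 and 6.74 at D48, 10.7, 9.49 and 9.33 at D100 and 15.1, 12.8 and 16.5 in APX3330. Gstm7 levels were 11.7, 11.2 and 12 CPM in Control, 10.6, 9.71 and 10.9 at D27, 6.22, 8.4 and 6.21 at D48, 12.3, 9.74 and 9.11 at D100 and 12.6, 10.9 and 13.9 in APX3330. In both, the 3 saline D48 libraries were below every Control and APX3330 library. APX3330 exceeded saline D48 by 0.88 in Gstm6 (SE 0.19, adjusted p = 0.0045) and 0.84 in Gstm7 (SE 0.17, adjusted p = 0.0037). Gstm4 also passed in both directions, at -0.53 in saline D48 against Control (adjusted p = 0.048) and 0.60 in APX3330 against saline D48 (adjusted p = 0.037), both lost without saline D48 replicate 2 or 3 and the first also without any Control library. Summed over the 7 genes, the mu class stood at 448 ± 9.74 CPM in Control, 345 ± 19.5 at D27, 244 ± 49.9 at D48, 364 ± 47.1 at D100 and 457 ± 18.8 in APX3330. Of 50-base words of their transcripts, 8.88% for Gstm1 and 15.8% for Gstm3 also occur in another member, so reads could move between them.

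The other GST classes moved less or in other ways. Gsto1, an omega-class thioltransferase and dehydroascorbate reductase at chr19:47854970-47864790, was the most abundant cytosolic GST per length, at 149 CPM per kb. It was measured at 351, 295 and 340 CPM in Control, 286, 288 and 235 at D27, 235, 276 and 185 at D48, 577, 315 and 288 at D100 and 308, 263 and 273 in APX3330. Saline D100 replicate 1, a library with squamous transcripts, was the highest by far, and the rise from saline D48 to D100 (0.76, SE 0.21, adjusted p = 0.026) was lost without it, and also without saline D48 replicate 1 or 3. Gstt1, a theta-class enzyme that handles small halogenated compounds, had 34, 27.6 and 35 CPM in Control, 29.2, 31.9 and 28.2 at D27, 29.2, 23.1 and 24.2 at D48, 22.1, 17.8 and 18.6 at D100 and 30.9, 26.9 and 25.5 in APX3330. Its saline D100 libraries were the lowest 3, at -0.73 against Control (SE 0.14, adjusted p = 0.0014), and APX3330 stood above them without passing in edgeR (0.51, SE 0.13, adjusted p = 0.10).

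Gsta4, an alpha-class enzyme that conjugates hydroxynonenal from peroxidised lipids, fell in saline D27, saline D48 and APX3330 against Control, by 1.31, 1.26 and 1.16 on the log2 scale (SE 0.37 in each, adjusted p = 0.0219, 0.0195 and 0.0442). Its highest values were 46.1 CPM in Control replicate 1, 37.1 in saline D100 replicate 1 and 32.3 in Control replicate 3, the 3 libraries with squamous transcripts, and 21.9 in Control replicate 2. The 3 falls were lost without all 3 of these libraries, without Control replicate 1 alone, and in most fits without 1 of the group's own libraries. Gsta1 fell in saline D27 and APX3330, also calls that were lost without Control replicate 1 or 3, and 46.6% of its 50-base words also occur in Gsta2. Gstp2 rose against Control in saline D27, saline D100 and APX3330, by 0.55, 0.52 and 0.88 (SE 0.18 in each, adjusted p = 0.041, 0.047 and 0.0041). The first 2 calls were each lost in 10 of 13 alternatives, among them total counts, no filter on low counts, the replicate block and any Control library left out, while the third was lost only without the libraries with squamous transcripts. It shares 49.1% of its 50-base words with Gstp1, the far more abundant pi-class gene, so its value is uncertain, and the 3 pi-class genes summed (128 ± 1.67 CPM in Control and 133 ± 10.3 in APX3330) did not pass in any comparison. Gstp3, the third of the class, fell in saline D100 by 0.79 (adjusted p = 0.021), a call lost without Control replicate 1 or 2 or saline D100 replicate 3. Without the libraries with squamous transcripts, the calls of Gstt1 and Gstp3 in saline D100 did not both hold.

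Several GSTs passed no pairwise test with edgeR. Gstz1, which also acts in tyrosine breakdown, ranged only from 24.5 to 29.0 CPM over the 15 libraries. The kappa-class Gstk1 of mitochondria and peroxisomes ranged from 19.1 to 25.2 CPM, and Gstm5 from 14.5 to 22.0. Gsta3, Gstp1, Gstt2 and Gsto2 were not called in any comparison either, and Gstt3 fell only in saline D48 against Control (-0.45, adjusted p = 0.033), a call lost without any 1 Control library or saline D48 replicate 1. The log2 fold changes of Gstz1 against Control were -0.04 at D27, -0.09 at D48, -0.06 at D100 and -0.06 in APX3330 (SE 0.09 in each).

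Of the 3 microsomal GSTs, Mgst3 and Mgst1 fell in all 3 saline groups against Control, and Mgst3 also in APX3330. Mgst3 (chr1:167371966-167393841, minus strand), a membrane enzyme with glutathione peroxidase activity, had the highest level per length of all members, at 222 CPM per kb. Its level was 303, 303 and 348 CPM in Control, 256, 239 and 212 at D27, 224, 195 and 193 at D48, 233, 242 and 225 at D100 and 210, 238 and 225 in APX3330. All Control libraries were above all 12 others. It fell against Control in saline D27, D48 and D100 and in APX3330, by 0.43, 0.64, 0.44 and 0.50 on the log2 scale (SE 0.10 in each, adjusted p = 0.0067, 3.1e-04, 0.0044 and 0.0033). The calls of Mgst3 in saline D27 and APX3330 were lost without the libraries with squamous transcripts, which leaves 1 Control library. No difference between APX3330 and a saline group passed.

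Mgst1, a detoxifying enzyme of the endoplasmic reticulum and outer mitochondrial membrane, was measured at 97.5, 97.6 and 127 CPM in Control, 72.8, 77.6 and 88.2 at D27, 74.8, 56.8 and 58.1 at D48, 85, 71.8 and 63.5 at D100 and 80.9, 88 and 100 in APX3330. Only APX3330 replicate 3 reached the Control range. It fell in saline D27, D48 and D100 by 0.43, 0.77 and 0.55 (SE 0.14 in each, adjusted p = 0.042, 0.0012 and 0.012), and APX3330 exceeded saline D48 by 0.51 (SE 0.14, adjusted p = 0.021). The call against saline D48 was lost without saline D48 replicate 2 or 3 or APX3330 replicate 2 or 3. That in saline D27 was lost with the replicate block and without Control replicate 1 or 3 or saline D27 replicate 1 or 2, and that in saline D100 without Control replicate 3 or saline D100 replicate 3. The call of Mgst1 in saline D27 was also lost without the libraries with squamous transcripts. In that fit, the calls of Mgst1 and Mgst3 in saline D100 did not both hold. Against Control, APX3330 gave -0.26 (adjusted p = 0.235). Mgst2, which can form leukotriene C, ranged from 64.4 to 103 CPM and was not called. The 3 summed to 519 ± 41.7 CPM in Control, 403 ± 11.8 at D27, 347 ± 30.7 at D48, 386 ± 15.8 at D100 and 403 ± 9.59 in APX3330.

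Of the 9 tested sulfotransferases, edgeR called Sult1a1 and Sult2b1 higher in APX3330 than in saline D48. Sult1a1, a phenol sulfotransferase at chr7:126672865-126676432 and the most abundant SULT at 96.2 CPM per kb, stood at 196, 171 and 147 CPM in Control, 129, 117 and 162 at D27, 118, 78.8 and 82.2 at D48, 87.1, 144 and 127 at D100 and 223, 190 and 199 in APX3330. The APX3330 libraries overlapped Control, while 2 of the saline D48 libraries and saline D100 replicate 1 were the lowest. It fell by 0.88 in saline D48 against Control (SE 0.19, adjusted p = 0.0029) and was higher by 1.13 in APX3330 against saline D48 (SE 0.19, adjusted p = 0.0011). With both pancreas-bearing libraries left out, neither passed, at -0.54 and 0.79 (adjusted p = 0.204 and 0.0855). Sult2b1, a sulfotransferase of cholesterol and other hydroxysteroids, moved likewise: 24.1 ± 3.39 CPM in Control, 22.3 ± 5.74 at D27, 12.4 ± 0.57 at D48, 20.6 ± 2.24 at D100 and 21.0 ± 3.86 in APX3330. All 3 saline D48 libraries were below the other 12, and APX3330 exceeded saline D48 by 0.77 (SE 0.19, adjusted p = 0.012).

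Sult1b1 (chr5:87513339-87538195, minus strand), which sulfates thyroid hormones and phenols, was below Control in every other group. Its level was 131, 164 and 159 CPM in Control, 107, 90.8 and 127 at D27, 94.5, 87.3 and 93 at D48, 103, 97 and 108 at D100 and 87.8, 102 and 106 in APX3330. The lowest Control library was above all 12 others. It fell against Control by 0.48 at D27, 0.72 at D48, 0.56 at D100 and 0.61 in APX3330 (SE 0.12 in each, adjusted p = 0.011, 5.4e-04, 0.0038 and 0.0033). The last 3 were called in all alternatives tried, while the first was lost without saline D27 replicate 2 and without the libraries with squamous transcripts.

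Its neighbour Sult1d1 (chr5:87554645-87569027, minus strand) had 149, 165 and 143 CPM in Control, 74.3, 52.2 and 105 at D27, 82.6, 64.8 and 80.4 at D48, 87.2, 89.9 and 111 at D100 and 104, 115 and 110 in APX3330. No other library reached the Control range of 143 to 165. It fell in saline D27, D48 and D100 by 0.98, 1.01 and 0.67 (SE 0.18 in each, adjusted p = 0.0022, 0.0010 and 0.016), and the difference in APX3330, -0.48, did not pass (adjusted p = 0.088), except without the filter on low counts. The call in saline D100 was lost without Control replicate 2 or saline D100 replicate 1 or 2. Sult1c2 showed 24.7, 23.4 and 29.1 CPM in Control, 12.7, 10.7 and 16 at D27, 16.3, 13.2 and 9.52 at D48, 15, 12.7 and 19.6 at D100 and 12.1, 17.2 and 15.3 in APX3330. Here too every Control library was above the other 12. It fell in saline D27, D48 and D100 and in APX3330 by 0.97, 0.99, 0.71 and 0.79 (SE 0.22, 0.22, 0.21 and 0.21, adjusted p = 0.0061, 0.0035, 0.027 and 0.022). The last 2 calls were lost without Control replicate 1 or 3, and without saline D100 replicate 1 or 2 or APX3330 replicate 1 or 3 respectively. Without the libraries with squamous transcripts, the calls of Sult1d1 in saline D27 and of Sult1c2 in saline D27 and APX3330 were lost too. Most calls of members in saline D100 against Control were also lost in that fit. Those of Sult1d1 and Sult1c2 there did not both hold.

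Sult4a1, a brain sulfotransferase without a settled substrate, stood apart by its high level in saline D27. It was measured at 4.57, 4.31 and 4.39 CPM in Control, 5.63, 7.85 and 5.83 at D27, 4.5, 4.6 and 3.54 at D48, 3.04, 3.4 and 4.14 at D100 and 3.58, 1.73 and 3.75 in APX3330. All 3 saline D27 libraries were above the other 12. APX3330 was lower than saline D27 by 1.09 on the log2 scale (SE 0.28, adjusted p = 0.026), a call lost in a fit of the 2 groups alone and without saline D27 replicate 1 or 2 or APX3330 replicate 2. Sult1e1, the estrogen sulfotransferase, Sult5a1 and Sult6b1 were all below 3 CPM in every library and passed no pairwise test in the filtered edgeR fit. DESeq2 called Sult1e1 lower in APX3330 than in saline D48 (-2.69, adjusted p = 0.0396), and edgeR without the filter called it lower in APX3330 than in Control, saline D27 and saline D48 and lower in saline D100 than in Control. Sult1e1 reached 1.66 CPM in Control replicate 3 and 1.74 in saline D27 replicate 3, and at most 0.353 in saline D100 and 0.201 in APX3330.

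**Figure D3:**
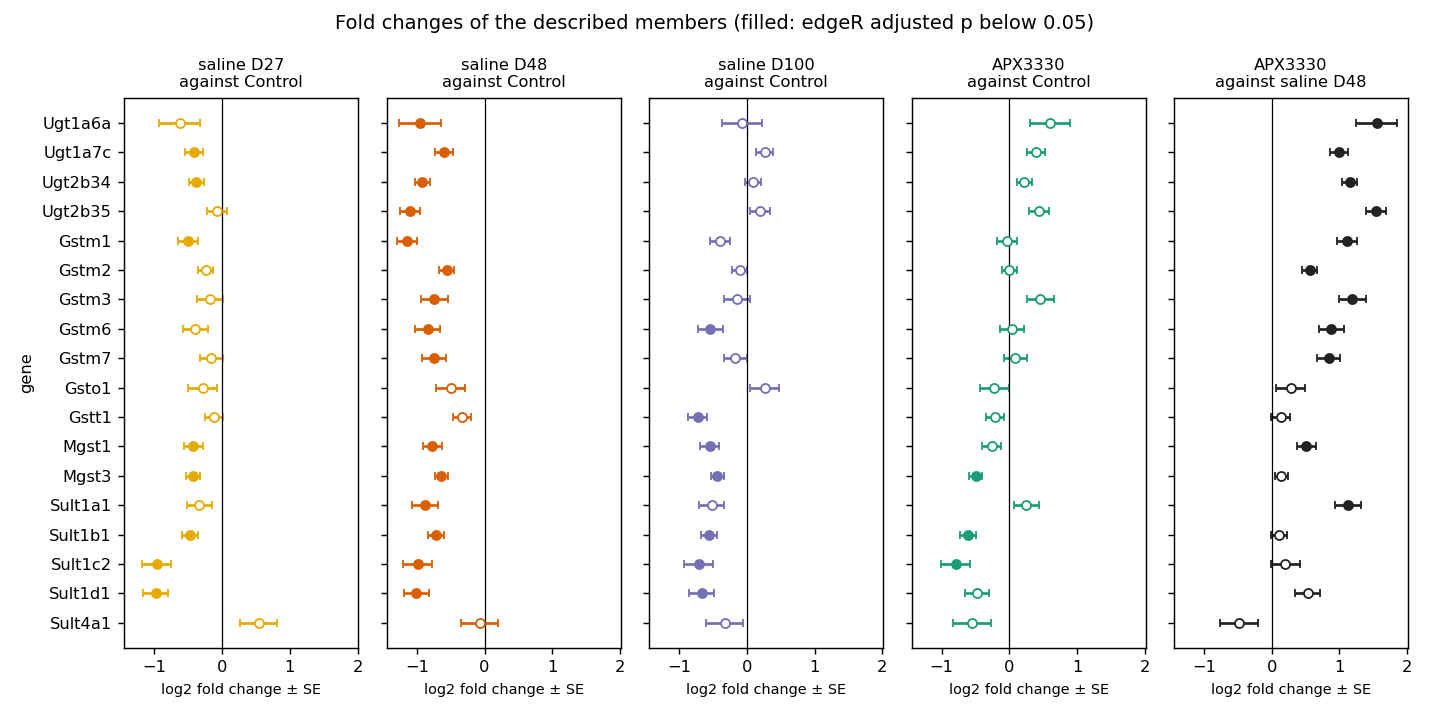
Log2 fold change ± SE of the 18 members described with their values in every library, in 5 comparisons; filled points have an edgeR adjusted p below 0.05. All 4 UGT genes lie left of 0 in saline D48 against Control and right of 0 in APX3330 against saline D48, whereas Mgst3, Sult1b1 and Sult1c2 lie left of 0 in all 4 comparisons with Control.

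The other 32 members did not pass the filter on low counts. The 15 without a count in any library were 5 UGTs (Ugt1a10, Ugt2a2, Ugt2b37, Ugt2b38 and Ugt3a1) and 10 SULTs (Sult2a1 to Sult2a8, Sult3a1 and Sult3a2). The Sult2a genes are bile acid and hydroxysteroid sulfotransferases known from the liver. The other 17 had between 1 and 78 counts over all 15 libraries, with the most for Ugt1a1, the bilirubin UGT, at 78. Ugt2b5 had 73 counts, of which 59 were in saline D100, where its libraries stood at 0.283, 2.44 and 1.28 CPM. Ugt2b36 had 22 of its 36 counts in APX3330, at 0.27, 0.533 and 0.67 CPM, and Ugt2b1 had 20 of 35 there, of which 16 were in 1 library. Gsta5 had 31 of 58 counts in Control. These were picked after their values were seen. Ugt2b5 was called higher in saline D100 than in Control by DESeq2 (4.32, adjusted p = 0.0146) and, without the filter, by edgeR (4.14, adjusted p = 0.00374), which then also called it higher than in saline D27 and D48. Without the filter edgeR also called Ugt2b36 higher in APX3330 than in saline D48 (5.93, adjusted p = 0.015) and Gsta5 lower in APX3330 than in Control (-3.71, adjusted p = 0.0391). Fold changes from so few counts depend on the prior count of the fit.

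Some genes that supply the cofactors of conjugation changed in the same comparisons. Of 16 tested, 8 fell in saline D48 against Control and Slc7a11 rose, where 13.0% of all genes fell and 14.3% rose. In APX3330, 7 were higher and none lower than in saline D48 and 7 higher and none lower than in saline D27, where 9.41% and 4.71% of all genes were higher. Ugdh, which makes UDP-glucuronate, stood at 216 ± 6.65 CPM in Control, 140 ± 27.8 at D27, 100 ± 21.6 at D48, 155 ± 6.85 at D100 and 218 ± 29.5 in APX3330. Its log2 difference between APX3330 and saline D48 was 1.13 (SE 0.15, adjusted p = 3.6e-04). Slc35d1, which brings UDP-sugars into the endoplasmic reticulum, was 35.5 ± 2.65, 31.2 ± 2.07, 27 ± 0.716, 46.1 ± 3.87 and 44.7 ± 4.99 CPM in the same order.

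On the sulfate side, the sulfate carrier Slc26a2 fell from 1413 ± 143 CPM in Control to 596 ± 109 at D27, 423 ± 94.7 at D48 and 696 ± 45.5 at D100, and was 1012 ± 334 in APX3330. It was higher in APX3330 than in saline D48 by 1.26 (SE 0.21, adjusted p = 0.0012) and than in saline D27 by 0.76 (SE 0.21, adjusted p = 0.035), the latter lost without saline D27 replicate 1 or 2 or APX3330 replicate 2 or 3. For glutathione, Gclm, the modifier subunit of its rate-limiting enzyme, was 72.6 ± 1.84, 63.1 ± 6.25, 56.5 ± 1.97, 82.3 ± 3.64 and 92.2 ± 4.05 CPM over the groups in order. APX3330 exceeded saline D48 by 0.71 (SE 0.08, adjusted p = 9.2e-05) and Control by 0.35 (SE 0.08, adjusted p = 0.010). Against saline D100 none of the 16 was called.

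Known regulators and other targets of theirs did not move as one. Of 17 regulators, 4 fell and 1 rose in saline D48 against Control, where 13.0% of all genes fell and 14.3% rose. In APX3330 against saline D48, 4 rose and none fell, where 9.41% of all genes were higher and 10.3% lower. Pparg, a nuclear receptor of fatty acids, was 36.2 ± 4.02 CPM in Control, 32.2 ± 2.65 at D27, 23.6 ± 1.49 at D48, 49.3 ± 3.53 at D100 and 48 ± 2.34 in APX3330. Nr1i2, which encodes PXR, fell in the 3 saline groups (by 0.44, 0.35 and 0.76 against Control, the call at D48 lost without Control replicate 1 or 3 or saline D48 replicate 2 or 3) and was not called in APX3330, where it stood at 83.4 ± 9.17 CPM beside 101 ± 5.14 in Control. Vdr, the vitamin D receptor, fell in the same 3 groups, and Cdx2, an intestinal identity factor, rose in all 4.

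Of 10 NRF2 targets, 2 rose and 3 fell in saline D48 against Control, beside 14.3% of all genes higher and 13.0% lower. The haem oxygenase gene Hmox1 rose there by 1.03 (SE 0.21, adjusted p = 0.0019) and the cystine carrier Slc7a11 by 0.84 (SE 0.26, adjusted p = 0.025, lost without Control replicate 1 or saline D48 replicate 2 or 3), while the glutathione synthesis genes Gclc and Gclm fell. Of 5 AHR targets tested, none was called in saline D48 against Control or in APX3330 against any group. Cyp1a1, the best known of them, fell in saline D27 and D100 against Control by 2.36 and 2.14, from 2.54 ± 0.876 CPM to 0.498 ± 0.385 and 0.564 ± 0.425. Both calls were lost without Control replicate 1 or 3 and without any library of the saline group compared. Cyp1a2 had no count in any library.

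A list of 9 tested genes encodes enzymes that cleave glucuronides, sulfate esters or the glutathione part of conjugates. Whether they act on conjugates made by the members was not tested. Of the 9, 4 (Gusb, Arsa, Ggt1 and Ggt5) rose in saline D48 against Control, beside 14.3% of all genes higher. None fell, and 5 were not called. In APX3330 against saline D48, 4 were lower and 1 higher, beside 10.3% and 9.41% of all genes. Gusb, the beta-glucuronidase of lysosomes, stood at 45.4 ± 4.16 CPM in Control, 62.0 ± 4.61 at D27, 81.6 ± 4.04 at D48, 60.3 ± 2.88 at D100 and 54.7 ± 3.66 in APX3330. It rose in saline D48 against Control by 0.85 (SE 0.09, adjusted p = 2.8e-05) and was lower in APX3330 than in saline D48 by 0.58 (SE 0.09, adjusted p = 7.9e-04). Another of the 4, Ggt1, was 3.16 ± 1.12 CPM in Control and 10.4 ± 8.23 in saline D48, and without both pancreas-bearing libraries its log2 difference from Control was -0.08 and not called. Dpep1, a dipeptidase of glutathione conjugates, was 51.9 ± 1.62 CPM in Control and 49.3 ± 14.5 in saline D48, and 140 ± 30.4, 170 ± 53.8 and 138 ± 27.7 in saline D27, saline D100 and APX3330. Of 8 efflux genes tested, 1 fell and 1 rose in saline D48 against Control, beside 13.0% of all genes lower and 14.3% higher. In APX3330 against saline D48, 2 were higher (Abcc3 and Abcb1a) and 1 lower (Abcb1b), beside 9.41% and 10.3% of all genes. Against saline D27, 1 was higher (Abcc3) and 1 lower (Abcb1b), beside 4.71% and 4.37%. Abcb1a, a drug pump, fell in the 3 saline groups against Control by 1.49, 1.91 and 1.39, from 726 ± 108 CPM to 258 ± 44.5, 193 ± 80.6 and 277 ± 11.9, and stood at 444 ± 136 in APX3330. Its relative Abcb1b rose at D27 and D48 against Control by 0.79 and 1.13 (SE 0.23 in each, adjusted p = 0.0239 and 0.00193), from 2.72 ± 0.508 CPM to 4.71 ± 0.474 and 5.97 ± 0.679, and was lower in APX3330, at 1.97 ± 0.275 CPM, than in either (by 1.25 and 1.60, adjusted p = 0.00835 and 4.99e-04). Its call at D27 was lost without Control replicate 3 or saline D27 replicate 1 or 2.

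**Figure D4:**
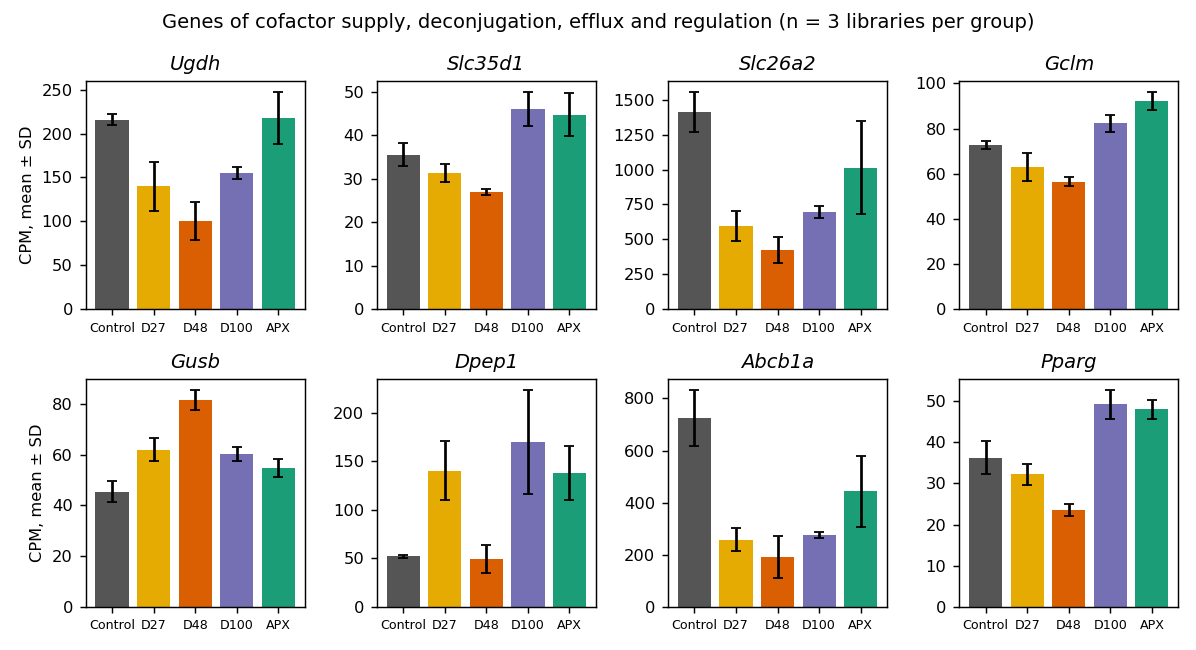
Mean CPM with SD (n = 3 libraries per group) of 8 genes around conjugation; bars start at 0. Ugdh, Slc35d1, Slc26a2, Gclm, Abcb1a and Pparg are lowest in saline D48, where Gusb is highest, and Dpep1 is low in Control and saline D48 alone.

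Cell markers moved with these groups too. The summed level of 8 absorptive colonocyte markers, all tested, was 3882 to 4884 CPM in Control, 2803 to 3219 at D27, 1440 to 2383 at D48, 2238 to 2687 at D100 and 1322 to 3671 in APX3330. The members differed. Against Control, 5 of the 8 fell and none rose in saline D48, and 3 fell and 2 rose in saline D27. In saline D100, 4 fell and 2 rose, and in APX3330, 5 fell and 1 rose. The 2 that rose were Slc9a3 and Guca2a, of which Slc9a3 alone rose in APX3330. In the same order, 13.0%, 9.36%, 10.5% and 8.18% of all genes fell, and 14.3%, 10.2%, 11.4% and 7.16% rose. The leukocyte list (7 of 7 tested) was 420 to 540 CPM in Control, 1349 to 1832 at D27, 1433 to 3291 at D48, 1232 to 1428 at D100 and 1007 to 1303 in APX3330. The goblet cell list (8 of 8 tested) was 9824 to 10794 CPM in Control and between 26776 and 82402 in the other groups. A list of genes that mark position along the gut (5 of 6 tested) was 850 to 930 CPM in Control and 446 to 716 elsewhere. Smooth muscle markers (8 of 8 tested) summed to 10067 to 10350 CPM in Control and 4337 to 9803 elsewhere. Adipocyte markers (8 of 8 tested) summed to 61.1 to 104 CPM in Control, 65.3 to 184 at D27, 63.8 to 92.4 at D48, 89.2 to 133 at D100 and 22.4 to 44.9 in APX3330. In APX3330, 7 were lower than in saline D27, 6 than in saline D48 and 3 than in saline D100. Of all genes, 4.37%, 10.3% and 0.200% were lower in these 3 comparisons. The part of these cell types in the changes of the conjugating enzymes was not tested. Of 6 hepatocyte markers 2 were tested, Alb and Ttr. Serpina1c had no count in any library, and Alb was at most 1.78 CPM in the group means. Ttr was 39.1 ± 2.56 CPM in Control, 24.4 ± 4.9 at D27, 29.5 ± 7.09 at D48, 20.3 ± 5.98 at D100 and 27.7 ± 4.59 in APX3330. It was called lower than Control in saline D27 and D100.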

How the data were processed

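Total RNA of mouse colon was sequenced in 15 libraries. The authors deposited 1 table of raw counts by gene, without normalisation. Libraries were made from 1.3 ug RNA with a SMARTER kit, per the labels' protocols. The submitters' processing notes name the builds GRCm38 and mm10. Aligner, counter and strand setting: not given in the sources used here. Close paralogues and genes on opposite strands may therefore hold misassigned reads. Among tested members, Gstm5, Gstz1, Sult1a1, Sult2b1, Sult6b1, Ugt1a6a and Ugt1a7c overlap exons on the other strand, and Gstt3 overlaps Gm20441 on its own strand.

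The counts were fitted in R 4.3.3 with edgeR 4.0.16 (TMM, filterByExpr, quasi-likelihood, 5 group means over all 15 libraries), and p-values were adjusted over 18038 genes. An SE is the log2 fold change over the square root of F. CPM use TMM-scaled library sizes. Subfamily sums were tested in a table where each sum replaced its members. Within groups, library pairs differed by more than counting noise. The fit was tested on simulated counts. Members and lists were chosen with earlier results of these data known. Members shown in every library are those with the smallest F test p per family (up to 6 UGT, 6 GST, 2 MGST and 4 SULT), the most abundant per family, and up to 4 called per comparison of APX3330 with saline. Supporting genes are at most 4 per list, called against Control, with the smallest F test p. Loci and exon lengths are from GENCODE M21 (67 of 68 members found by symbol), promoters from RefSeq. Alternatives were DESeq2 1.42.0 and its size factors, total counts, no filter, the replicate block, only the groups compared, and libraries left out. Figures used matplotlib 3.10.9. No permutation test was used, since the smallest exact p that 2 groups of 3 allow is 0.1.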

Additional observations from a re-analysis of the deposited data

How the results depend on the processing

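Of 859 recomputed values for 62 called differences of the 18 members shown in every library, 693 stayed past the threshold and 166 did not; for 16 called differences of other members, 129 of 221 values did. None of these values changed sign. For 88 called differences of supporting genes, 992 of 1209 values stayed past it and 1 changed sign: Ggt1 in saline D48 against Control, at -0.08 when both saline D48 libraries with pancreatic transcripts were left out. The cause of the changes below was not tested, apart from fewer libraries in a fit. Counts of called members were as follows. Without the libraries with squamous transcripts they were, against Control, 0 at D27, 9 at D48, 2 at D100 and 1 in APX3330, and 1 in saline D100 against saline D27. Without the filter on low counts they were 11 in APX3330 against Control, 10 against saline D27 and 4 against saline D100, and 5 in saline D100 against saline D27. The DESeq2 test gave 9 and 2 in APX3330 against saline D27 and D100, and 5 in saline D100 against saline D27. A fit of only the 2 groups gave 0 in saline D48 against saline D27 and 5 in saline D100 against saline D48. Without saline D48 replicate 2, the library above the limit of 1% pancreatic transcripts, 1 was called in saline D48 against saline D27. Leaving out both saline D48 libraries with pancreatic transcripts, a choice made after seeing the data, gave 7 in saline D48 against Control, 5 in APX3330 against saline D48, 0 in saline D48 against saline D27 and 2 in saline D100 against saline D48.

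Leaving out 1 library at a time gave 3 to 7 calls in saline D27, 5 to 8 in saline D100 and 3 to 7 in APX3330 against Control. It gave 2 to 7 in APX3330 against saline D27, 1 to 4 in saline D48 against saline D27, 5 to 9 in saline D100 against saline D48 and 0 to 3 in saline D100 against saline D27. With the replicate number as a block (replicate block), 2 members were called in saline D48 against saline D27, and the other counts stayed within 1.5 times. Only 3 of 30 same-number pairs of libraries correlated above 0.1, so the numbers were not taken as pairs. Scaling by total counts lowered the share of calls that were higher, over all genes, from 52.2% to 39.6% in saline D100 against Control, from 46.7% to 34.9% in APX3330 against Control and from 52.9% to 39.0% in saline D100 against saline D27. No called member changed sign with it. Members with few counts, among them Sult1e1, Sult5a1, Sult6b1 and Gsto2, cannot show small differences at this depth.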
